A study of Mus musculus with 16 samples.

Results

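The BCL2 family of apoptosis regulators was examined in xenografts of H295R, an established human adrenocortical carcinoma line, through the probes of 10 listed RefSeq transcripts. Of these, 9 were present on the array: BCL2 (NM_000633), BCL2L1 (NM_138578), MCL1 (NM_021960), BAK1 (NM_001188), BBC3 (NM_014417), PMAIP1 (NM_021127), BID (NM_197966), BCL2L11 (NM_138621) and BAD (NM_004322). The identifier listed for BAX, NM_138761, was not on it, so BAX was not analysed here. The 9 transcripts were read by 10 of 34127 probes, since BID had 2, and made up 9 of 29094 identifiers. All 9 entered the tests, among 20244 transcripts tested. Symbols come from the list of identifiers and not from the files.

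The tumours grew in male SCID mice, hosts without mature lymphocytes of their own. By mouth and over 28 days the controls received corn oil, and the treated groups received mitotane, 9-cis retinoic acid (9-cisRA) or the 2 drugs together (combined). Mitotane is an adrenal-toxic drug used against adrenocortical carcinoma, and 9-cisRA is a ligand of the retinoic acid and retinoid X receptors. Total RNA of the tumours was labelled with Cy3 and read on human 1-colour Agilent arrays. Scanner output was used for 15 arrays, 3 of them combined and 4 in each other group. Combined replicate 3 was read only in the authors' table of processed values, which covers 16 arrays. The design text speaks of 43 mice. Which mouse each array stands for is not in the labels, so the p-values cover the spread between arrays, and some of it may be technical. In these bulk samples, fewer cells of a type and less RNA per cell cannot be told apart.

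Proteins of the BCL2 family decide whether the outer mitochondrial membrane is opened, which releases cytochrome c and starts the caspase cascade. BCL2, BCL2L1 (BCL-XL) and MCL1 keep the membrane closed, BAK1 and BAX form the pores, and the BH3-only proteins BBC3 (PUMA), PMAIP1 (NOXA), BID, BCL2L11 (BIM) and BAD either activate the pore formers or neutralise the guardians. Much of the regulation of these proteins lies in their stability, phosphorylation and cleavage, which an RNA array does not read.

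The tumours carried adrenocortical RNA. NR5A1, STAR, CYP11A1, CYP17A1, CYP21A2 and HSD3B2 were well above background on all 15 arrays, MC2R on 12 and CYP11B1 on 1. One library stood apart. On control replicate 4 the 75th percentile of the signal was 224.2 intensity units against 551.5 to 1061 on the other 14 arrays, and its median correlation with them was 0.874, where the others had 0.977 to 0.99. PTPRC, the pan-leukocyte antigen CD45, was at 5.15 there and between -4.74 and -3.09 on the other arrays (log2 signal relative to the array's 75th percentile, the scale of every level below). CD3E, a T cell receptor subunit, was at 3.24 there and at most -4.04 elsewhere. Of the 16 lymphocyte markers on the array, a list added after the data were seen, 9 were higher there than on all other arrays, 3 lower and 4 within their range. Of the 8 adrenocortical markers 5 were lower, 1 higher and 2 within. All 4 endothelial markers were higher, 2 of them well above background there, and all 4 fibroblast markers were within. Of all transcripts tested, 28.8% were higher there than on all other arrays and 43.4% lower. Changes of the members against control are therefore given with that array and, after them, without it. Combined replicate 4 had 60.5% of its probes well above background, against 63.6% on control replicate 4 and 71.5% to 77.4% on the others. The 9-cisRA arrays all lay at position 4 of their slide, so position and 9-cisRA cannot be told apart.

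No member of the family passed an adjusted p of 0.05 in limma in any of the 7 comparisons or in the F test over all 4 groups, where the share of all transcripts called was 0% as well. The changes described below therefore rest on unadjusted p-values and on the values themselves. On unadjusted p under 0.05, MCL1 was lower and BAD higher under combined treatment than in controls, which is 2 of the 9 members, where 13.8% of all transcripts passed the same rule. By the probe that entered the tests, no member passed it for mitotane against control (6.03% of all transcripts) or for 9-cisRA against control (3.5%). The second probe of BID did pass for mitotane, as given below. When control replicate 4 was left out, the members passing were MCL1, BCL2 (both lower) and BBC3 (higher) under combined treatment, with 18.3% of all transcripts passing. Then BBC3 passed for 9-cisRA, with 4.34% of all, and none for mitotane, with 7.67%. The F test gave PMAIP1 alone on the same rule (8.08% of all transcripts), and MCL1 and PMAIP1 without control replicate 4 (15.7% of all).

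**Figure D1:**
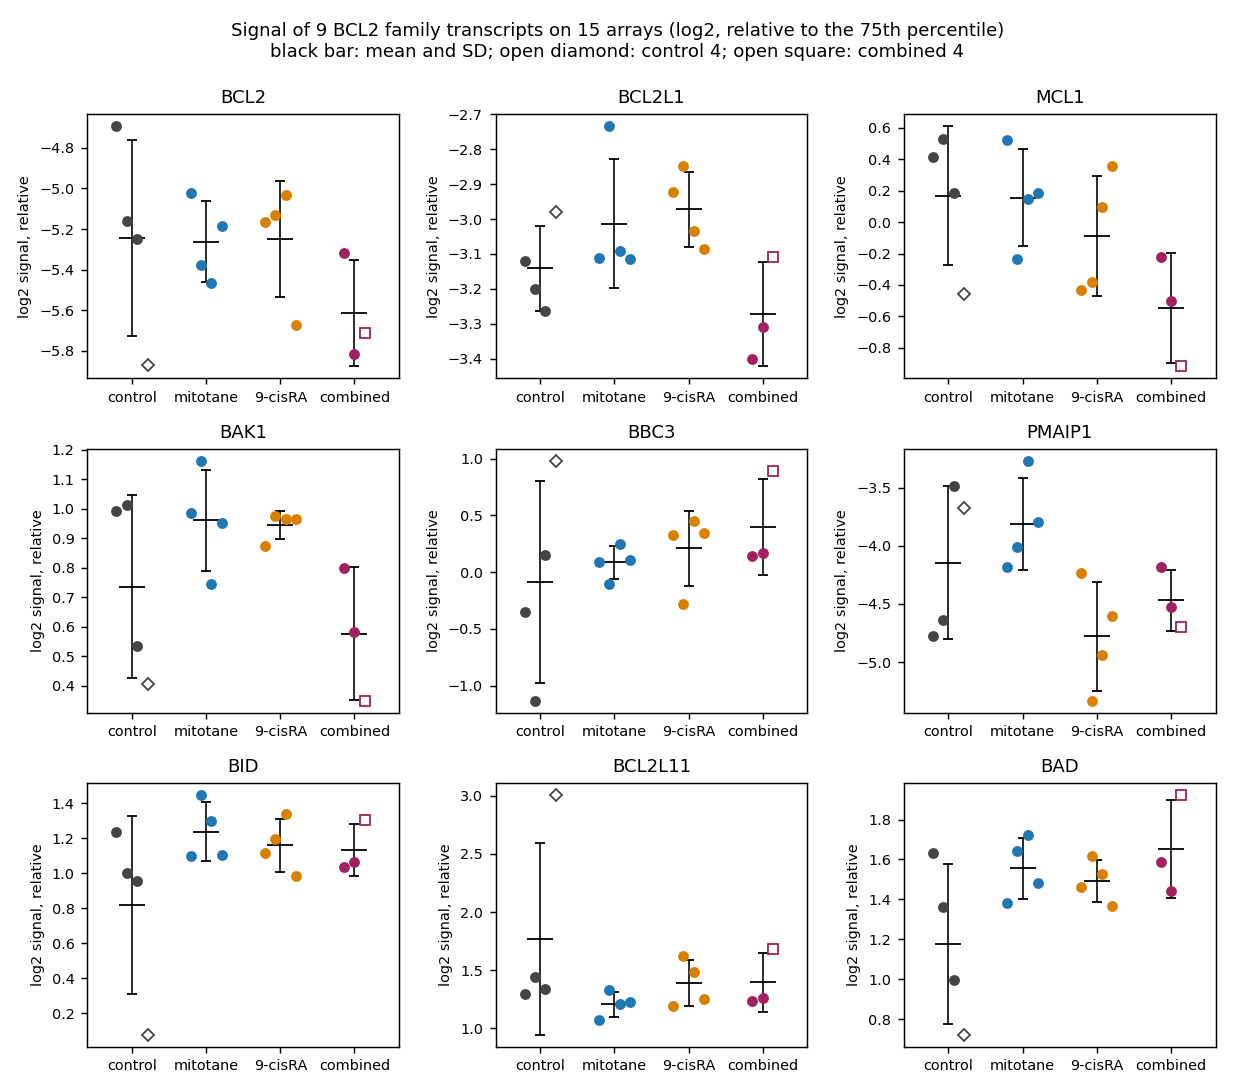
Level of each of the 9 transcripts on 15 arrays by treatment group, as log2 signal relative to the array's 75th percentile (y axis, own range per panel). Points are arrays and bars the group mean and SD, with control 4 as an open diamond and combined 4 as an open square. The 3 combined arrays of MCL1 lie between -0.92 and -0.23, and control 4 is the highest array for BCL2L11 at 3.01.

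The anti-apoptotic transcript with the largest mean change was MCL1, a short-lived protein whose transcript is also short-lived. Its level on the control arrays was 0.42, 0.53, 0.19 and -0.46, the last on control replicate 4. The combined arrays were at -0.23, -0.50 and -0.92. The controls overlapped the combined arrays only through control replicate 4, and each combined array was below the control array of its own slide (3 of 3 slides). The same 3 of 3 held for BCL2L1, BAK1 and BCL2L11, while 1 or 2 of 3 were lower for each other member. The change was -0.72 ± 0.27 (SE, log2), or 1.64-fold lower, with a 95% interval from -1.31 to -0.13 (limma adjusted p = 0.29), and 7.09% of all transcripts had a smaller p. Leaving out control replicate 4 gave -0.93 ± 0.24 (limma adjusted p = 0.16), and the groups then did not overlap. The share of all transcripts without overlap was 15.2% with that array and is not given without it, so this separation has no background beside it. With each of the 15 arrays left out in turn the change ran from -0.93 to -0.53, and the unadjusted p was no longer under 0.05 without control replicate 1, control replicate 2 or combined replicate 4.

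For either drug alone the intervals of MCL1 held 0. Mitotane arrays were at 0.52, -0.23, 0.15 and 0.19, and their change against control was -0.013, with a 95% interval from -0.56 to 0.53. The 9-cisRA arrays were at -0.43, -0.38, 0.10 and 0.36, a change of -0.26 with an interval from -0.80 to 0.29. Once control replicate 4 was left out, the changes of MCL1 were -0.22 for mitotane and -0.47 for 9-cisRA, neither past an unadjusted p of 0.05. Means ran in the order control (0.17 ± 0.44 SD, n = 4), mitotane (0.16 ± 0.31, n = 4), 9-cisRA (-0.09 ± 0.38, n = 4) and combined (-0.55 ± 0.35, n = 3). Neighbours among the first 3 differed by less than their SD. Set directly against mitotane, the change under combined treatment was -0.70 ± 0.27 (limma adjusted p = 0.95, 2.29% of all transcripts with a smaller p, unadjusted p not under 0.05 without mitotane replicate 1 or combined replicate 4), and against 9-cisRA the change was -0.46 (adjusted p = 0.68). The interaction term, which asks whether the combined change departs from the sum of both single changes, was -0.45 ± 0.37 for MCL1 (limma adjusted p = 0.97), so no departure from additivity was detectable.

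The authors' deposited table of log2 values adds the fourth combined array. There the combined arrays of MCL1 were at -0.18, -0.45, -0.39 and -0.87, each value relative to the probe's own centre over the arrays. The control arrays were at 0.50, 0.60, 0.27 and -0.47 on the same scale. Combined replicate 3, at -0.39, lay within the range of the other combined arrays. Over these 16 arrays the change was -0.70 (limma adjusted p = 0.22), and -0.93 without control replicate 4 (adjusted p = 0.10). With array weights, which give noisier arrays less say, it was -0.84 with an adjusted p of 0.0027 in limma, the setting under which MCL1 was 1 of 5783 transcripts past the threshold.

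BCL2, the founding member of the family, was not well above background on control replicate 4 and combined replicate 4. Control arrays were at -4.69, -5.16, -5.25 and -5.87 and combined arrays at -5.32, -5.81 and -5.71. Mitotane arrays lay between -5.47 and -5.02 and 9-cisRA arrays between -5.67 and -5.03. The change under combined treatment was -0.37 ± 0.25 (limma adjusted p = 0.52), and -0.58 ± 0.20 without control replicate 4 (adjusted p = 0.19). All 3 combined arrays were then below the control arrays at -4.69 to -5.25, again without a share over all transcripts beside it. Under either drug alone the change of BCL2 was near 0, at -0.020 for mitotane and -0.0076 for 9-cisRA, with intervals reaching about 0.5 to each side. These values for BCL2 rested on control replicate 4, without which they were -0.23 and -0.22, neither past an unadjusted p of 0.05. BCL2 was printed in 10 copies per array, whose SD had a median of 0.27 over the arrays and reached 0.56 on combined replicate 4.

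BCL2L1 encodes BCL-XL, the long anti-apoptotic form, and its probe was also printed in 10 copies. Control arrays were at -3.12, -3.20, -3.26 and -2.98, mitotane arrays at -3.11, -2.73, -3.09 and -3.11, 9-cisRA arrays at -2.92, -2.85, -3.04 and -3.09, and combined arrays at -3.40, -3.31 and -3.11. All 3 combined arrays lay below all 4 of the 9-cisRA arrays, a change of -0.30 ± 0.14 (limma adjusted p = 0.55). The closest arrays were combined replicate 4 at -3.108 and 9-cisRA replicate 4 at -3.086. Between the copies of BCL2L1 the SD had a median of 0.085 over the arrays and reached 0.56 on combined replicate 4. The separation is thus narrow beside the spread of the copies on that array. In the authors' deposited table, which holds the fourth combined array, the groups overlapped for BCL2L1: combined replicate 3 was at 0.043 and 9-cisRA replicate 4 at 0.020. On the 15 arrays that comparison had 2 of the 9 members with groups that did not overlap, BCL2L1 and BAK1, where 16.3% of all transcripts did not overlap. The interaction term of BCL2L1 was -0.43 ± 0.20 (limma adjusted p = 0.97). Both single drugs had means above control (0.13 and 0.17 on the log2 scale) and their combination a mean below it (-0.13). The 3 changes of BCL2L1 were 0.18, 0.22 and -0.077 without control replicate 4. With array weights the change against 9-cisRA was -0.34 with an adjusted p of 0.032 in limma. Under that setting 1998 of the 20244 transcripts passed in this comparison.

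**Figure D2:**
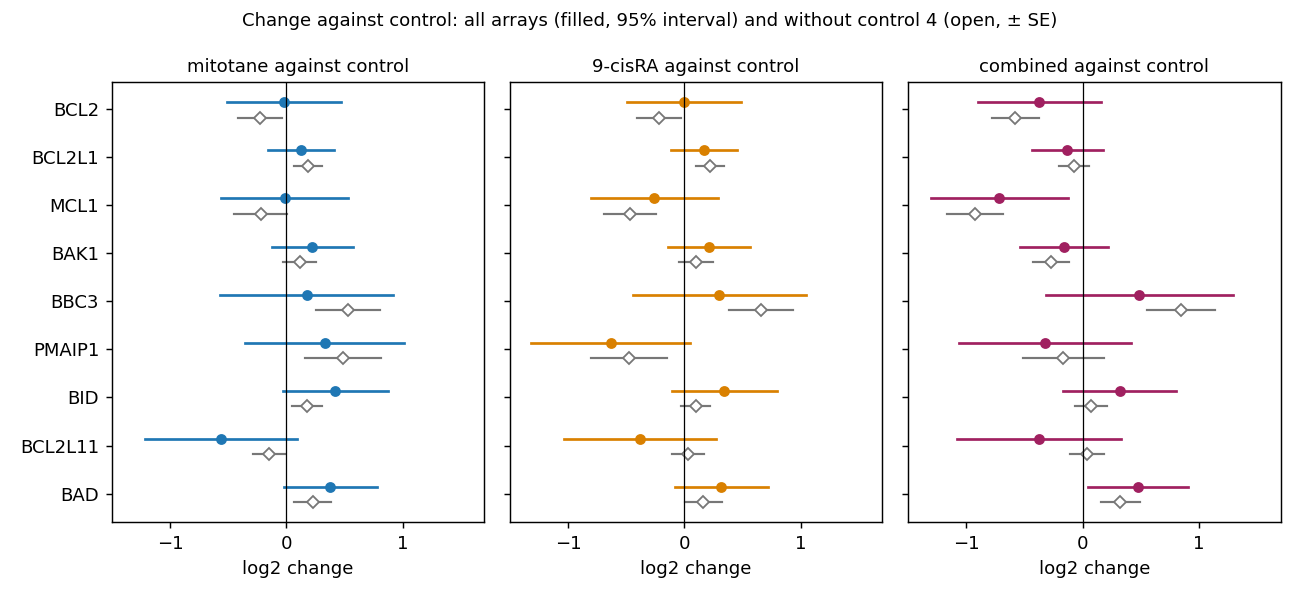
Change of each transcript against control (x axis, log2) for mitotane, 9-cisRA and combined treatment; filled points use all 15 arrays with 95% intervals, open diamonds leave out control 4 and have bars of 1 SE. Among filled points, the intervals of MCL1 (-1.31 to -0.13) and BAD (0.04 to 0.91) under combined treatment lie on one side of 0.

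BAK1, a pore former, had a lower mean under the combination than under each drug alone. Control arrays were at 0.99, 1.01, 0.54 and 0.41 and mitotane arrays at 0.98, 1.16, 0.75 and 0.95. The 9-cisRA arrays were at 0.87, 0.98, 0.97 and 0.97, and the combined arrays at 0.80, 0.58 and 0.35. The combined values thus stood below all 9-cisRA values, while their range met those of the mitotane and control arrays. The change against mitotane was -0.38 ± 0.18 (limma adjusted p = 1, 4.57% of all transcripts with a smaller p) and against 9-cisRA -0.37 ± 0.18 (adjusted p = 0.55). Against control it was -0.16, with an interval from -0.54 to 0.22. The interaction term of BAK1 was -0.59 ± 0.24 (limma adjusted p = 0.97), and 1.88% of all transcripts had a smaller p for that term. The mean of BAK1 was 0.22 above control under mitotane and 0.21 above it under 9-cisRA. Leaving out control replicate 4 gave 0.11 and 0.099 for these, and -0.27 for combined treatment against control. BCL2L1 and BAK1 were the 2 of 9 members past an unadjusted p of 0.05 for the interaction, where 3.71% of all transcripts passed. The same count was 2 without control replicate 4, with 6.94% of all. Leaving out 1 array at a time, the interaction of BCL2L1 ran from -0.51 to -0.34 and missed that p in 9 of 15 cases, and that of BAK1 ran from -0.70 to -0.48 and missed it in 3 (mitotane replicate 2, control replicate 3 or combined replicate 4). The change of BAK1 against mitotane ran from -0.49 to -0.27 and missed it in 9 of 15.

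Across the family, MCL1 and BAK1 were the 2 of 9 members past an unadjusted p of 0.05 for combined treatment against mitotane, with 4.75% of all transcripts passing. Genes listed as fibroblast markers also passed in that comparison, with COL1A1 at 1.96 and COL1A2 at 1.33. Adrenocortical markers passed too, with HSD3B2 at -0.97 and MC2R at -1.02. The part of these genes in the members' changes was not tested. Without control replicate 4, which enters that comparison only through the shared estimate of the spread, BCL2L1, MCL1 and BAK1 passed, with 11.5% of all. Against 9-cisRA no member passed (9.45% of all), and without control replicate 4 BCL2L1 and BAK1 did (19% of all). The family's median change was -0.16 for combined treatment against control, where the median of all transcripts was 0.087, and -0.26 against mitotane, where it was 0.011. For mitotane and 9-cisRA against control the family medians were 0.174 and 0.169, beside 0.088 and 0.032 for all transcripts. Without control replicate 4 the family medians against control were -0.077 for combined treatment, 0.175 for mitotane and 0.095 for 9-cisRA. Those of all transcripts were then 0.079, 0.078 and 0.016. The comparisons share their control arrays and are not independent of each other.

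The BH3-only transcript PMAIP1 (NOXA), whose protein binds MCL1, differed most between both drugs. Mitotane arrays were at -4.18, -4.01, -3.27 and -3.80, and 9-cisRA arrays at -4.23, -5.33, -4.94 and -4.60. Every mitotane array lay above every 9-cisRA array, a difference of 0.96 ± 0.32 or 1.95-fold (95% interval 0.28 to 1.65, limma adjusted p = 0.82, 1.07% of all transcripts with a smaller p). This comparison of mitotane with 9-cisRA was added after the data were seen. PMAIP1 was the only member past an unadjusted p of 0.05 in it, where 4.84% of all transcripts passed and 11.2% without control replicate 4, and the only one with groups that did not overlap, where 4.67% of all did not. With 1 array left out at a time the difference ran from 0.78 to 1.15, and the unadjusted p was under 0.05 in all 15 cases. The size of the PMAIP1 difference changed with the processing: after normexp on median signals and quantile normalisation it was 0.24. Which of these steps moved it was not tested.

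Control arrays spread widely for PMAIP1, at -4.78, -4.64, -3.49 and -3.68, and overlapped both drug groups. Combined arrays were at -4.18, -4.53 and -4.70. The order of the means was mitotane (-3.81 ± 0.40 SD), control (-4.15 ± 0.66), combined (-4.47 ± 0.27) and 9-cisRA (-4.78 ± 0.47), and neighbours differed by 0.33 at most. Against control the change was 0.33 ± 0.32 for mitotane (limma adjusted p = 0.74) and -0.63 ± 0.32 for 9-cisRA (adjusted p = 0.74). These were 0.49 and -0.48 without control replicate 4, and 0.11 and -0.14 with all arrays after normexp and quantile normalisation. The probe was not well above background on control replicate 4 and combined replicate 4. COL1A1, listed as a fibroblast marker, was also apart between these groups, with a change of -1.79 for mitotane against 9-cisRA (limma adjusted p = 0.82). Its probe is human and the host a mouse, and which cells its signal comes from was not tested. The part of COL1A1 in the PMAIP1 difference was not tested either.

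BBC3 (PUMA), a target of p53, had the widest control spread of the family. Control arrays were at -0.36, -1.13, 0.15 and 0.98, with control replicate 4 the highest of all 15. Combined arrays were at 0.14, 0.16 and 0.89, mitotane arrays between -0.11 and 0.25 and 9-cisRA arrays between -0.28 and 0.45. All groups overlapped. The change under combined treatment was 0.49 ± 0.37 (limma adjusted p = 0.57), and 0.84 ± 0.29 without control replicate 4 (adjusted p = 0.19). Without that array the change was 0.66 for 9-cisRA (limma adjusted p = 0.98) and 0.53 for mitotane (adjusted p = 0.62), from 0.30 and 0.17 with it. Control replicate 2, at -1.13, is the lowest array of all for BBC3. With array weights the change under combined treatment was 1.11 with an adjusted p of 0.0033 in limma. Under that setting 5783 of the 20244 transcripts passed in this comparison.

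BAD, which binds BCL2 and BCL-XL when it is not phosphorylated, was higher on average in all 3 drug groups. Control arrays were at 1.63, 1.36, 1.00 and 0.72, the last on control replicate 4. Treated arrays lay between 1.37 and 1.92, so that the control arrays other than replicate 1 stood below all of them. The change was 0.47 ± 0.20 under combined treatment (1.39-fold, limma adjusted p = 0.33), 0.38 ± 0.19 under mitotane (adjusted p = 0.71) and 0.32 ± 0.19 under 9-cisRA (adjusted p = 0.74). The 3 changes were 0.32, 0.23 and 0.16 without control replicate 4, none past an unadjusted p of 0.05. The change under combined treatment also missed that p without control replicate 3, combined replicate 1 or combined replicate 4, in a range from 0.32 to 0.63.

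The changes of BCL2L11 (BIM) against control depended on 1 array in their size. Control replicate 4 was at 3.01, and the other 14 arrays lay between 1.07 and 1.69. The other controls were at 1.29, 1.44 and 1.34, combined arrays at 1.24, 1.26 and 1.69, mitotane arrays between 1.07 and 1.33 and 9-cisRA arrays between 1.19 and 1.62. With control replicate 4 the changes were -0.56 ± 0.30 for mitotane (limma adjusted p = 0.71), -0.38 for 9-cisRA and -0.38 for combined treatment. Without it they were -0.15, 0.030 and 0.036, so that the direction turned for 9-cisRA and for combined treatment. Within slides BCL2L11 was lower than on the control array on 4 of 4 slides under mitotane, 2 of 4 under 9-cisRA and 3 of 3 under combined treatment. The lymphocyte markers that were high on the same array are given above, and their part in this level was not tested.

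BID, which caspase 8 cleaves to link death receptors to mitochondria, was read by 2 probes. On control replicate 4 both were below all other arrays, at 0.08 and 0.17, where the others lay between 0.95 and 1.45 for the first probe and between 0.67 and 1.40 for the second. The first probe, which entered the tests, changed by 0.42 ± 0.21 under mitotane, 0.34 ± 0.21 under 9-cisRA and 0.32 ± 0.23 under combined treatment (limma adjusted p from 0.54 to 0.74). They were 0.17, 0.095 and 0.071 without control replicate 4. In a limma fit that took every probe, the second changed by 0.50 ± 0.20 under mitotane (unadjusted p = 0.024, adjusted p = 0.71). It changed by 0.42 under 9-cisRA and 0.35 under combined treatment. Its mean was 1.23 on the mitotane arrays and 0.73 on the controls, or 0.92 on the controls without control replicate 4. No fit without that array is given for the second probe. In all, control replicate 4 was above the other 14 arrays for BCL2L11 and BBC3, below them for BCL2, BAD and BID, and within their range for the remaining members, where 28.8% of all transcripts tested were above and 43.4% below.

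The remaining counts of groups without overlap were 0 of 9 members for mitotane (4.24% of all transcripts), 9-cisRA (2.39%) and combined treatment (15.2%) against control, and for combined treatment against mitotane (11%).

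Differences between a pro-apoptotic and an anti-apoptotic transcript on the same array are not moved by a scaling constant common to the array, though quantile normalisation and background correction can move them, and their change between groups was tested. BAK1 minus MCL1 was 0.58, 0.48, 0.35 and 0.86 on the control arrays and 1.02, 1.08 and 1.27 on the combined arrays, which did not overlap. The 9-cisRA arrays were at 1.31, 1.35, 0.87 and 0.61 and the mitotane arrays at 0.46, 1.40, 0.60 and 0.76, each overlapping the controls. The difference was higher on average by 0.56 under combined treatment and by 0.47 under 9-cisRA, with p = 0.057 in both cases by a two-sided exact permutation test and 0.26 after adjustment over 9 tests. The smallest p these designs allow is 0.029. BCL2L11 minus MCL1 was 0.88, 0.91, 1.15 and, on control replicate 4, 3.47 in controls, and 1.46, 1.76 and 2.60 on the combined arrays (change 0.34, exact permutation p = 0.69). BBC3 minus BCL2L1 changed by 0.62 under combined treatment (exact permutation p = 0.26). The other 5 tests had exact permutation p-values from 0.37 to 1. Leaving out control replicate 4, the 3 changes under combined treatment were 0.66, 0.96 and 0.92, each with an exact p of 0.10, the smallest that 3 against 3 arrays allow.

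**Figure D3:**
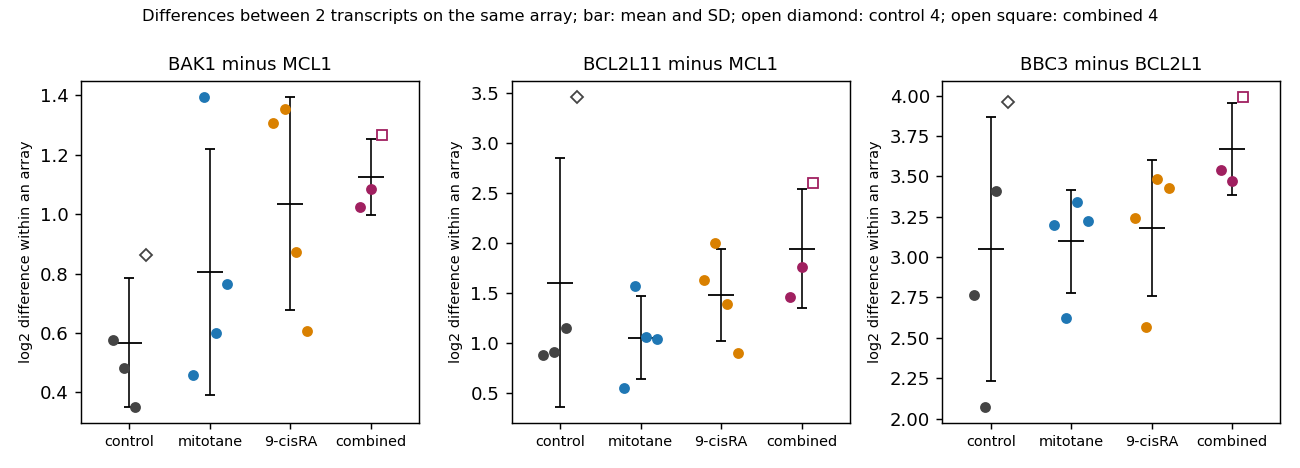
Differences of 2 transcripts within an array (y axis, log2 units, own range per panel) by group, with the group mean and SD as bars, control 4 as an open diamond and combined 4 as an open square. For BAK1 minus MCL1 the combined arrays, from 1.02 to 1.27, lie above the control arrays, from 0.35 to 0.86.

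The wider apoptosis pathway was read from lists of 44 genes, of which 42 were tested. The identifier listed for HTRA2 was not on the array, and BCL2L14 was not tested. None passed an adjusted p of 0.05 in any comparison. On unadjusted p under 0.05, 9 of the 42 were higher and 0 lower under combined treatment than in controls, beside 13.8% of all transcripts. The counts were 1 higher and 1 lower for mitotane and 0 for 9-cisRA. Leaving out control replicate 4, 5 of the 42 were higher and 3 lower under combined treatment, beside 18.3% of all transcripts. The 3 lower were CYCS (-0.58), SESN1 (-0.49), a p53 target, and the death receptor FAS (-0.37). The counts were then 1 lower, CYCS, for mitotane and 0 for 9-cisRA. The median change of the 42 under combined treatment was 0.204, and that of all transcripts 0.087. By list the medians were 0.227 for other BCL2 family members, 0.233 for apoptosome and caspases and 0.24 for inhibitors of apoptosis. They were 0.357 for the death receptor arm and -0.206 for p53 and its targets. Without control replicate 4 these list medians were 0.168, -0.026, 0.034, 0.175 and -0.009 in the same order, beside 0.079 for all transcripts.

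Of 12 other BCL2 family members, 3 were among the 9. BIK, a BH3-only protein of the endoplasmic reticulum, had a change of 0.54 ± 0.18 (limma adjusted p = 0.24), BCL2L12 of 0.43 and the MCL1-like guardian BCL2A1 of 0.37. Under mitotane BNIP3L, a mitophagy receptor, had a change of -0.48 ± 0.21 (limma adjusted p = 0.71), and of -0.26 without control replicate 4. Of 8 apoptosome genes and caspases, 0 passed in any comparison with control over all 15 arrays. CYCS, which encodes cytochrome c, had changes of -0.016 under mitotane and -0.29 under combined treatment, and of -0.30 and -0.58 without control replicate 4, both then past an unadjusted p of 0.05. Of 5 inhibitors of apoptosis, BIRC3 (1.40 ± 0.55) and BIRC5 (0.47 ± 0.19), the mitotic protein survivin, were higher on average under combined treatment. The combined arrays of BIRC3 spread from -4.8 to -2.3 and overlapped its control arrays, at -6.3 to -4.3.

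In the death receptor arm, 3 of 10 passed under combined treatment. The adaptor TRADD changed by 0.55 ± 0.16 (limma adjusted p = 0.23), the ligand TNFSF10 (TRAIL) by 1.33 ± 0.52 and CASP10 by 0.37. The combined arrays of TNFSF10 spread from -1.5 to 0.6 and overlapped its control arrays, at -2.8 to -1.2. TRADD (0.36) and TNFSF10 (1.36) also passed for combined treatment against 9-cisRA. Of 7 genes of p53 and its targets, DDB2, a DNA repair protein, changed by 0.60 ± 0.19 under combined treatment. CDKN1A, the cell cycle inhibitor p21, had a change of 0.61 ± 0.23 under mitotane (limma adjusted p = 0.71), and of 0.48 without control replicate 4, where its unadjusted p was no longer under 0.05. It was lower under the combination than under mitotane (-0.83 ± 0.25, limma adjusted p = 0.85). It was also 0.66 higher under mitotane than under 9-cisRA. In that comparison 4 of the 7 genes were higher and 3 lower, and CDKN1A alone passed an unadjusted p of 0.05 (4.84% of all transcripts). Of the p53 targets among the members, PMAIP1 was higher there by 0.96, and BBC3 changed by -0.12. CDKN1A was well above background on 3 of 4 control and 2 of 3 combined arrays. Without control replicate 4, BIK, BCL2L12, TRADD, TNFSF10 and DDB2 kept an unadjusted p under 0.05 in limma for combined treatment, while BCL2A1, BIRC3, BIRC5 and CASP10 did not.

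**Figure D4:**
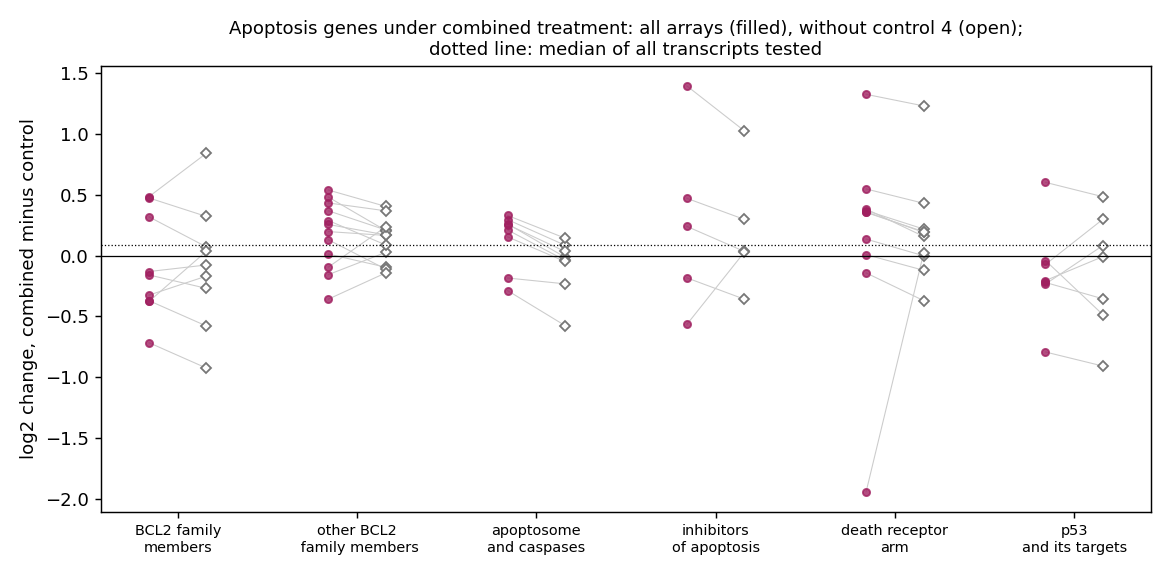
Change under combined treatment against control (y axis, log2) of the 9 family members and of 5 lists of apoptosis genes; filled points use all arrays, open diamonds leave out control 4, lines join a gene's values and the dotted line is the median of all transcripts, 0.087. Among the family members the lowest is MCL1, at -0.72 with all arrays and -0.93 without control 4.

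Genes listed as markers of other cells moved with some groups. The probes are human and the host is a mouse, and which cells these signals come from was not tested. The summed level of 4 fibroblast genes was 4.71 to 4.90 on control arrays, 3.32 to 6.40 under mitotane, 5.30 to 6.99 under 9-cisRA and 5.70 to 5.97 under combined treatment, with COL3A1 well above background on 4 of 15 arrays. Blood and liver genes were at 6.33 to 7.32, 4.19 to 7.28, 4.12 to 5.91 and 4.47 to 7.72 in the same order, with HBB well above background on no array. That sum was almost wholly HBA2, which lay at 4.12 to 7.72 over the 15 arrays, where ALB lay at -6.41 to -4.57. Endothelial genes were at -2.33 to -0.79, -2.48 to -1.86, -2.35 to -1.78 and -2.25 to -2.12, with PECAM1 well above background on no array. The leukocyte genes lay at -3.56 to 5.16 in controls and at -3.58 to -2.46 over the treated arrays. Adrenocortical genes were at 5.39 to 6.79 in controls and at 5.93 to 6.63 over the treated arrays. The highest of them was STAR, at 4.58 to 6.11. Low genes such as HSD3B2 (-3.85 to -1.35) and MC2R (-6.17 to -4.02) hardly enter that sum. How much of the change of MCL1, BAD or any other member goes with these levels was not tested.

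Transcripts with the most similar pattern were sought for the 3 members with the smallest F-test p, over the 14 arrays without control replicate 4 and among 15774 transcripts well above background on all 15 arrays. For PMAIP1 they were NM_032591 (Pearson r = 0.923), NM_002583 (0.920) and THC2659926 (0.904). For MCL1 they were NM_145010 (0.938), NM_015221 (0.914) and ENST00000342579 (0.905). For BAD they were NM_033453 (0.949), NM_003926 (0.941) and NM_001025237 (0.941). These are descriptions over arrays that share their groups and slides, and were picked as the highest of 15773 or 15774 correlations each.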

How the data were processed

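Members, lists and tests were chosen with earlier results of these data known. The main values are spot intensities in scanner output deposited by the authors (Agilent Feature Extraction 11.0.1, per the submitters' processing notes), with background already subtracted per the file headers. The second source is a table of log2 values deposited by the authors, made by steps not given in the sources used here. Over 20244 transcripts its differences between arrays correlated with those of the scanner files at r = 1.00 after rounding. Its column medians were -0.42 for control replicate 4 and -0.027 to 0.055 for the others, and the exact set of spots behind its scaling stays unknown. 

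Each array's log2 intensities were scaled to their 75th percentile (43118 spots, controls excluded), and outlier spots were dropped. The probe with the highest mean stood for each identifier. Tests took transcripts whose probe exceeded background (in at least 0.5 of its spots) throughout at least 1 group. The groups were fitted together with lmFit and eBayes of limma 3.58.1 in R 4.3.3, two-sided, with Benjamini-Hochberg adjustment over all transcripts and a threshold of 0.05. The number of arrays limits the precision. Differences within an array were compared by exact permutation of arrays. The files hold no mean signal, so normexp (offset 50) used the median signal. Slide is also the replicate number, and each slide holds 1 array of each group. Same-slide arrays deviated together at a median r of 0.01 (21 pairs), so slide entered only an alternative.

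All listed members were named. Of the pathway lists, genes with an unadjusted p under 0.05 in a comparison were named. The fit was tested on simulated data. The planned difference BAX minus BCL2 was not run, since the identifier listed for BAX was not on the array. The comparison of mitotane with 9-cisRA, the lymphocyte markers and the alternatives that leave out control replicate 4 with combined replicate 4 or with the slide were chosen after seeing the data. No sequence is shown.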

Additional observations from a re-analysis of the deposited data

Results flagged for a closer look

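Among 30 sets of 4 arrays (10 probes in the control, mitotane and 9-cisRA groups), 4 held an array farther from the rest than Dixon's limit for 4 values. Chance gives about 1 in 20. BCL2L11 stood at 3.01 on control replicate 4, and the nearest control array was at 1.44. BCL2L1 stood at -2.73 on mitotane replicate 2, with the nearest mitotane array at -3.09. BAK1 stood at 0.87 on 9-cisRA replicate 1, with the nearest at 0.97, in a group whose SD was 0.048. The second probe of BID stood at 0.91 on 9-cisRA replicate 4, with the nearest at 1.22, while the first probe was at 0.98 there and not past the limit.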

How the results depend on the processing

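No adjusted call on a member was made under any alternative other than array weights, which gave calls for MCL1 and BBC3 (combined against control) and BCL2L1 (combined against 9-cisRA). Array weights gave 3 transcripts for mitotane, 4 for 9-cisRA and 5783 for combined treatment against control, 103 and 1998 for combined treatment against mitotane and 9-cisRA, and 3879 in the F test, where the fit without weights gave 0 throughout. The value table without control replicate 4 gave 1 for combined treatment against mitotane. Leaving out 1 array gave 0 to 1 there and 0 to 9 for mitotane against 9-cisRA, the 1 and the 9 both without mitotane replicate 2. The cause was not tested. Transcripts with an unadjusted p under 0.05, the background of the members' counts, moved more. With array weights they were 4469 for mitotane (from 1221), 2362 for 9-cisRA (709) and 8553 for combined treatment (2786) against control, 3249 and 5651 for combined treatment against mitotane (961) and 9-cisRA (1913), 2594 for the interaction (751), 2638 for mitotane against 9-cisRA (980) and 7793 in the F test (1636). With only both groups in the fit the 5 planned comparisons gave 579, 304, 1312, 1955 and 3047. Single arrays moved them by over 1.5 times too. Mitotane against control gave 2074 without control replicate 1, and 689 and 574 when mitotane replicates 2 and 3 were left out, and 9-cisRA against control 1909 and 1126 without control replicates 1 and 2. Combined replicate 4 left out gave 1614 against control, 590 against mitotane and 1089 in the F test. Combined against 9-cisRA gave 1268 without 9-cisRA replicate 2, the interaction 479 without mitotane replicate 2, and mitotane against 9-cisRA 523 and 629 without mitotane or 9-cisRA replicate 3. Signal over background limits BCL2 and PMAIP1, which 2 arrays did not measure well above it.

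The slide as a replicate block changed no call. The change of MCL1 under combined treatment was then -0.70 (limma adjusted p = 0.38). The block turned the sign of BID (0.018) and BCL2L11 (-0.031) for combined treatment against 9-cisRA and of the PMAIP1 interaction (0.092). With control replicate 4 left out as well, a replicate block gave BCL2L11 0.012 for 9-cisRA and 0.024 for combined treatment against control, and a BBC3 interaction of -0.18.

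Other reversed signs concerned values that were not called. With normexp they were BCL2 for 9-cisRA (0.0092) and the BBC3 interaction (-0.054). With quantile normalisation they were BCL2 for mitotane (0.16) and 9-cisRA (0.29), BCL2L11 for combined against 9-cisRA (-0.023) and the BBC3 interaction (-0.011). Quantile normalisation moved the median of all transcripts to 0.113 for mitotane and 0.102 for combined treatment. With array weights they were BAK1 for mitotane (-0.0066) and 9-cisRA (-0.014), PMAIP1 for combined treatment (0.23), BBC3 (-0.072) and BCL2L11 (-0.066) for combined against 9-cisRA, the interactions of BCL2 (0.037) and BBC3 (-1.09), and BCL2 for mitotane against 9-cisRA (0.16). In the value table BCL2 was 0.018 for 9-cisRA with control replicate 4, and -0.21 without it. BAK1 was -0.0076 there for mitotane against 9-cisRA, both with and without that array. Without that array the table gave BCL2L11 0.033 for 9-cisRA and 0.076 for combined treatment, and a BBC3 interaction of -0.31. Without control replicate 4 and combined replicate 4, BCL2L11 was 0.030 for 9-cisRA, BID -0.014 for combined treatment, BAD -0.040 against mitotane, BBC3 -0.058 and BCL2L11 -0.14 against 9-cisRA, and the BBC3 interaction -0.59.

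Leaving out 1 array at a time gave ranges that crossed 0 for these. Mitotane against control: BCL2 -0.23 to 0.16, MCL1 -0.22 to 0.12, BBC3 -0.17 to 0.53. For 9-cisRA against control: BCL2 -0.22 to 0.18, BBC3 -0.049 to 0.66, BCL2L11 -0.54 to 0.030. Combined treatment: BCL2L11 -0.54 to 0.036 against control, BAD -0.040 to 0.20 against mitotane, and BID -0.11 to 0.036, BCL2L11 -0.14 to 0.085 and BBC3 -0.058 to 0.32 against 9-cisRA. Mitotane against 9-cisRA: BCL2 -0.15 to 0.060, BAK1 -0.053 to 0.087, BCL2L1 -0.13 to 0.0012. The interactions were PMAIP1 -0.24 to 0.19 and BBC3 -0.34 to 0.36. Within an array, BBC3 minus BCL2L1 gave -0.28 to 0.35 for mitotane and -0.20 to 0.43 for 9-cisRA, and BCL2L11 minus MCL1 -0.79 to 0.071 and -0.36 to 0.50. In all, 903 of 945 values with 1 array left out, and 698 of 733 under the other alternatives, kept their direction and their side of the threshold.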
